A study of Komagataella phaffii with 6 samples.

Results

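PCK1, FBP1 and ICL1, the key genes of gluconeogenesis and the glyoxylate cycle, are 3 of the 5040 loci counted in the yeast Komagataella phaffii. They were taken by locus tag: PAS_FragB_0061 for PCK1, PAS_chr3_0868 for FBP1 and PAS_chr1-4_0338 for ICL1. The tags were paired with these names outside the count table, which gives tags only, and the names were not checked against sequence. All 3 loci were counted in every library and passed the filter on low counts. None of the 3 was called higher or lower without nitrogen. PCK1 and FBP1 were high in both groups and were both highest in replicate 3 with nitrogen, while ICL1 was read far less.

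Gluconeogenesis builds hexose phosphates from smaller molecules, and runs through the enzymes of glycolysis in reverse except at a few irreversible steps. Phosphoenolpyruvate carboxykinase, encoded by PCK1, makes phosphoenolpyruvate from oxaloacetate, and fructose-1,6-bisphosphatase, encoded by FBP1, removes a phosphate from fructose 1,6-bisphosphate. Isocitrate lyase, encoded by ICL1, splits isocitrate into succinate and glyoxylate, the step that lets the glyoxylate cycle build four-carbon acids from acetyl units. In Saccharomyces cerevisiae all these genes are repressed by glucose and are needed on substrates such as ethanol or acetate. Methanol carbon enters a methylotrophic yeast by another route: formaldehyde is joined to xylulose 5-phosphate, an acceptor that is restored by rearrangement of sugar phosphates.

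All 6 libraries came from wild-type K. phaffii strain X-33, a methylotrophic yeast, after 40 h on glycerol in 100 ml and a further 18 h on methanol. The methanol medium held ammonium sulfate for the 3 libraries with nitrogen, and no nitrogen source for the 3 libraries without it. Both groups thus shared the strain, the glycerol culture and methanol as carbon source, and no other carbon source was compared here. Reads came from the 3′ ends of transcripts, with 1 fragment per transcript. The labels do not state if each replicate was grown on its own, and differences among replicates may be technical. The edgeR p-values below rest mostly on the trend of this variation over all genes, and little on a gene's own replicates.

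The libraries held 127303 to 435003 counts each. The lowest total belonged to replicate 3 without nitrogen. Of 3330 genes tested with edgeR's quasi-likelihood test, 122 were higher and 89 lower without nitrogen at an adjusted p under 0.05, or 3.66% and 2.67% of the genes. Levels are given as CPM, which are read counts brought to a common library size with TMM factors, and fold changes as log2, without nitrogen minus with nitrogen.

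PCK1 has 1 coding exon of 1674 bp, between 2775424 and 2777097 on chromosome 1, plus strand (assembly ASM2700v1). With nitrogen it had 10638, 10950 and 15606 CPM in replicates 1, 2 and 3, from 4787, 3252 and 4917 counts. Without nitrogen it had 11715, 9777 and 10903 CPM, from 3442, 3959 and 1402 counts. The groups overlapped: replicate 3 with nitrogen stood above the other 5 libraries, which lay close together. Over all libraries PCK1 ranked 7 among the loci by total count, and it alone took up to 1.53% of a library's counts.

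PCK1 averaged 12398 ± 2782 CPM in the group with nitrogen and 10798 ± 973 CPM in the group lacking it (SD, n = 3 each). The fitted log2 change of PCK1 was -0.20 ± 0.12 (SE), with edgeR's adjusted p = 0.447 and a 95% interval from -0.44 to 0.04, or 0.737-fold to 1.03-fold. This value rested largely on replicate 3 with nitrogen: without that library the log2 fold change was -0.0061 (edgeR adjusted p = 0.989). An exact permutation test of the CPM, two-sided, gave p = 0.5, where 3 libraries against 3 cannot give less than 0.1.

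FBP1 has 1 coding exon of 1062 bp, between 1692961 and 1694022 on chromosome 3, minus strand. With nitrogen it had 3696, 4226 and 5557 CPM in replicates 1, 2 and 3, from 1663, 1255 and 1751 counts. Without nitrogen it had 4350, 3401 and 4262 CPM, from 1278, 1377 and 548 counts. As for PCK1, the highest library was replicate 3 with nitrogen, the lowest was replicate 2 without nitrogen, and the groups overlapped.

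FBP1 averaged 4493 ± 959 CPM in the group with nitrogen and 4004 ± 524 CPM in the other (SD, n = 3 each), and it ranked 19 by total count. The fitted log2 change of FBP1 was -0.17 ± 0.12 (SE), with edgeR's adjusted p = 0.545 and a 95% interval from -0.41 to 0.07, or 0.754-fold to 1.05-fold. Without replicate 3 with nitrogen it was 0.0057, so the sign turned (edgeR adjusted p = 0.991). The exact permutation test of the CPM gave p = 0.6.

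ICL1 has 1 coding exon of 1650 bp, between 2031599 and 2033248 on chromosome 1, plus strand. With nitrogen it had 533, 522 and 619 CPM in replicates 1, 2 and 3, from 240, 155 and 195 counts. Without nitrogen it had 487, 484 and 692 CPM, from 143, 196 and 89 counts. Its highest library was replicate 3 without nitrogen, the shallowest, and the other libraries without nitrogen were the lowest of all 6. In that library ICL1 took 0.0699% of the counts, with an exact Clopper-Pearson 95% interval from 0.0561% to 0.0860%. Such intervals cover counting error only and treat each read as independent. The labels mention no molecular identifiers, so copies of the same fragment could not be told apart and the intervals may be too narrow.

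ICL1 averaged 558 ± 53.0 CPM in the group with nitrogen and 554 ± 119 CPM in the other (SD, n = 3 each), and it ranked 337 by total count. The fitted log2 change of ICL1 was -0.06 ± 0.15 (SE), with edgeR's adjusted p = 0.915 and a 95% interval from -0.35 to 0.23, or 0.785-fold to 1.18-fold. It ran from -0.20 without replicate 3 without nitrogen to 0.036 without replicate 2 without nitrogen, and was also above 0 without replicate 1 without nitrogen and without replicate 3 with nitrogen. The exact permutation test of the CPM gave p = 1.0.

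**Figure D1:**
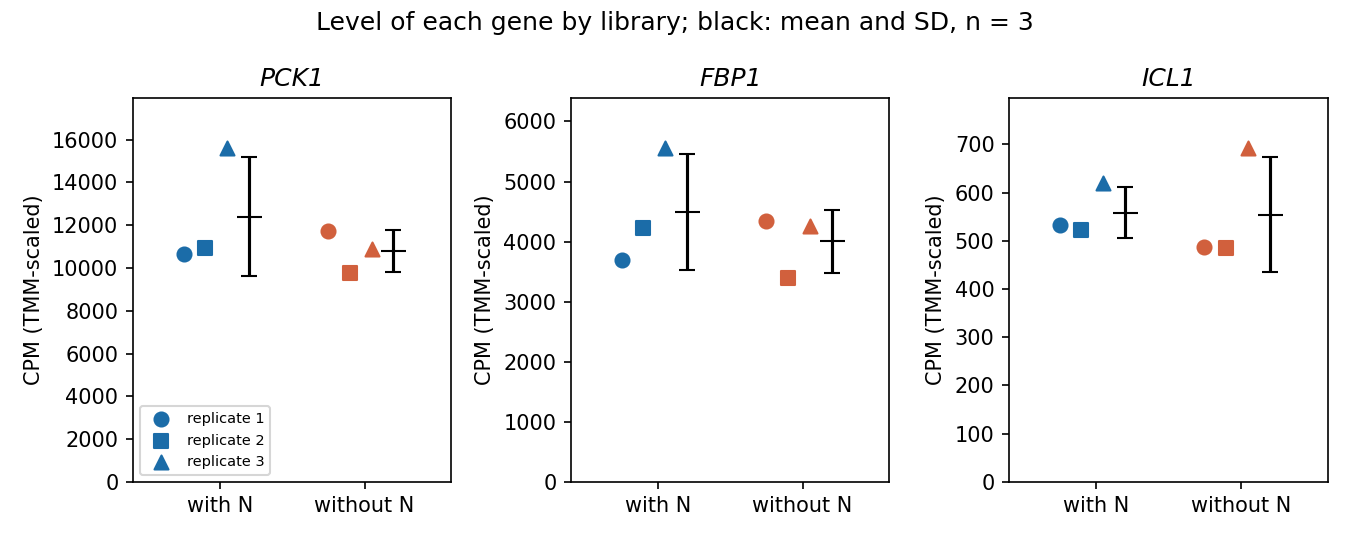
CPM of PCK1, FBP1 and ICL1 in each library, on a linear axis from 0 with its own scale for each gene. Symbols give the replicate number, and the black bar gives the mean and SD of 3 libraries. The groups overlap for each gene, and PCK1 is highest in replicate 3 with nitrogen at 15606 CPM.

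None of the 3 genes was called by edgeR, against 6.34% of all tested genes. DESeq2 and limma-voom also called 0 of the 3, where they called 119 and 208 of the 3330 genes. With edgeR, 0 of the 3 had an unadjusted p under 0.05, against 16.4% of all tested genes. The groups overlapped for each of the 3, and they were apart for 20.2% of all tested genes. With only 3 genes, counts of 0 are near all these shares and mark no trait of the members. Their median log2 fold change was -0.17, beside a median of 0.00 over all tested genes, for which the middle 50 percent lay between -0.24 and 0.25. The edgeR intervals of all 3 genes lay between 0.737-fold and 1.18-fold, and a smaller rise or fall is not excluded by these libraries. Their width comes mostly from the trend over all genes, so these bounds are not firm and a somewhat larger change is not excluded either. The SE of PCK1, 0.12 here, was 0.091 with limma-voom and 0.17 in an edgeR fit with the replicate number as a block.

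Summed, the 3 genes took 1.54%, 1.54% and 2.14% of all counts in replicates 1, 2 and 3 with nitrogen. Without nitrogen they took 1.61%, 1.40% and 1.60%. The means were 1.74% ± 0.346 and 1.54% ± 0.119 (SD, n = 3 each), a difference of -0.204 percentage points that did not exceed the spread between libraries (exact permutation p = 0.6). Without replicate 3 with nitrogen the difference was -0.0047 percentage points. PCK1 held most of these reads, so the sum says little of the other members.

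Per length, the order of the levels was PCK1, FBP1, ICL1 in every library. PCK1 ran from 5840 to 9322 CPM per kb of coding sequence, FBP1 from 3202 to 5233 and ICL1 from 293 to 419, so that no library of one gene reached into the range of the next. PCK1 lay 1.62 to 1.83 times above FBP1 within a library, and FBP1 lay 9.57 to 14.0 times above ICL1. Reads of a 3′ end method need not grow with gene length. By CPM without division by length the order was the same. Fragments wholly in a 3′ untranslated region would not be counted, so neither order need be that of the transcripts.

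The spread between replicates was much wider than counting error for PCK1 and FBP1. With nitrogen the coefficient of variation of the CPM was 22.4% for PCK1 and 21.3% for FBP1, where counting alone gives 1.54% and 2.55%. Without nitrogen it was 9.01% and 13.1%, against 1.99% and 3.25% from counting. For ICL1 it was 9.50% with nitrogen and 21.5% without, against 7.22% and 8.70% from counting, so depth was a larger part of the spread of ICL1 than of the other members.

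PCK1 and FBP1, which lie on different chromosomes, kept a similar proportion from library to library. There were 34.7, 38.6 and 35.6 FBP1 reads per 100 PCK1 reads in replicates 1, 2 and 3 with nitrogen, and 37.1, 34.8 and 39.1 without. The log2 ratio of FBP1 to PCK1 averaged -1.46 ± 0.0793 in the group with nitrogen and -1.44 ± 0.0846 in the other (SD, n = 3 each). Its SD over all 6 libraries was 0.0748, while the SD of the log2 CPM was 0.234 for PCK1 and 0.242 for FBP1. Over all 6 libraries the ratio therefore varied less than either gene. Replicate 3 with nitrogen, at 0.44 and 0.40 above the gene means in log2 CPM, made up much of the spread of both genes. In the other libraries PCK1 lay between -0.23 and 0.03 of its mean and FBP1 between -0.30 and 0.05. Whether the ratio was steadier than each gene without that library was not tested. The difference of 0.027 between groups lay within the spread of the ratio (exact permutation p = 0.7, adjusted p = 0.7 over 3 ratios).

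The ratios with ICL1 varied more, with an SD over all libraries of 0.241 for ICL1 to PCK1 and 0.221 for FBP1 to ICL1. The counting intervals of the FBP1 to ICL1 read ratio shared a common range over all libraries. For ICL1 to PCK1, only replicate 3 without nitrogen, with 89 ICL1 counts, lay outside the range shared by the others. Whether ICL1 kept a looser proportion beyond counting error was not tested. The log2 ratio of ICL1 to PCK1 averaged -4.45 ± 0.178 in the group with nitrogen and -4.30 ± 0.309 in the other (SD, n = 3 each), a difference of 0.16 (exact permutation p = 0.5, adjusted p = 0.7). The log2 ratio of FBP1 to ICL1 was 2.99 ± 0.188 and 2.86 ± 0.273, a difference of -0.13 (exact permutation p = 0.6, adjusted p = 0.7). The groups overlapped for all 3 ratios, which need no scaling between libraries, so an unequal change of the members was not detectable here.

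**Figure D2:**
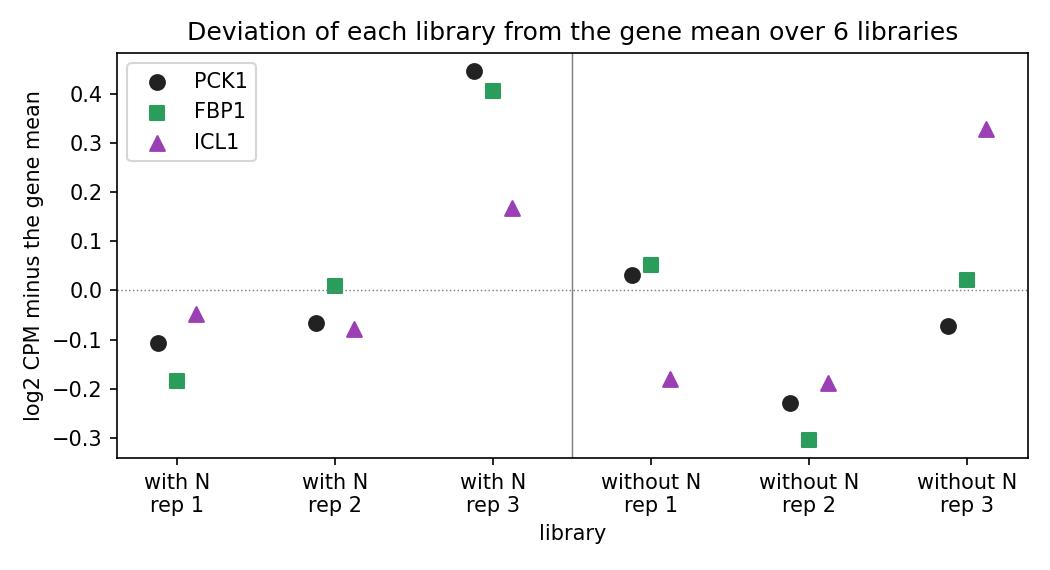
Deviation of the log2 CPM of each library from the mean of that gene over 6 libraries, with nitrogen on the left of the grey line and without on the right. PCK1 and FBP1 lie at 0.44 and 0.40 in replicate 3 with nitrogen and close to each other in the other libraries, and ICL1 is highest, at 0.33, in replicate 3 without nitrogen.

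Likeness of pattern was measured over the 6 libraries as the root mean square difference in log2 CPM, each gene centred on its mean, among genes of at least 100 CPM. Of 1678 other genes, FBP1 ranked 2 in likeness to PCK1, with a difference of 0.0682, and PCK1 ranked 2 in likeness to FBP1. The nearest gene to both was PAS_chr4_0672 on chromosome 4 at 1299338 to 1299640, with differences of 0.0662 from PCK1 and 0.0657 from FBP1, against medians over all these genes of 0.316 and 0.322. ICL1 ranked 310 in likeness to PCK1 and 210 to FBP1, with differences of 0.219 and 0.202, which were also below those medians. ICL1 had the fewest counts of the members, and counting error adds to its differences. The same holds for the many other genes read far less than PCK1 and FBP1, which ranked 7 and 19 by total count. Counting error thus raises the medians, and the high values of PCK1 and FBP1 in replicate 3 with nitrogen add to their likeness. Whether their likeness goes beyond these 2 points was not tested. The nearest genes to ICL1 were PAS_c131_0006 on chromosome 3 (2221865 to 2222686; 0.0451) and PAS_chr1-1_0293 on chromosome 1 (1114881 to 1116227; 0.0508). The table names no function for these genes, and genes that vary little lie near each other by this measure.

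Replicate 3 with nitrogen stood apart for PCK1 and FBP1. There PCK1 was 1.45-fold and FBP1 1.40-fold above the mean of the other libraries with nitrogen, and ICL1 1.17-fold. Among 1679 tested genes of at least 100 CPM, 3.34% were raised in that library by as much as PCK1, 4.11% by as much as FBP1 and 20.4% by as much as ICL1. The library's total of 320915 counts and its TMM factor of 0.982 lay within the range of the others. Over tested genes, though, its pairs with its fellows differed most, at a chi-square per degree of freedom of 2.69 and 2.28. The other pair with nitrogen had 2.08, and pairs without nitrogen had 1.78 to 2.08. What else moved with this library was not tested.

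The other genes of these pathways came from a list of 21 loci, written down by locus tag from what was already known of K. phaffii. Earlier results of these data were also known when the list was chosen. No source used here annotates them, so they are given by role and not by gene name. The list held 5 loci for further enzymes of the glyoxylate cycle, including malate dehydrogenases, and 3 for entry into the pathway by pyruvate carboxylation or acetate activation. A further 8 loci stood for the reversible steps shared with glycolysis. The remaining loci were 3 for the opposing glycolytic steps, phosphofructokinase and pyruvate kinase, and 2 for zinc cluster regulators.

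Of the 20 listed loci that were tested, 4 rose without nitrogen and 0 fell at an edgeR adjusted p under 0.05, beside 3.66% of all tested genes called higher and 2.67% called lower. The other 16 did not pass. As the list was chosen with earlier results of these data known, these counts are a description only. The median log2 fold change of the 20 loci was 0.23, against 0.00 for all tested genes, and the range was -0.92 to 0.73. Both ends of that range are loci with few counts. The lowest had 1 to 18 counts per library (SE 0.46) and the highest 10 to 56 (SE 0.28), and neither was called. The count of 4 rested on single libraries: it was 1 without replicate 1 with nitrogen and 0 without replicate 1 without nitrogen. Replicate 3 with nitrogen was the highest of its group for 15 of the 20 loci and for 35.2% of tested genes of at least 100 CPM; the part of this in the values was not tested, and without that library 5 loci rose.

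By role, the loci nearest to ICL1 in function did not pass. Of the 5 listed for the glyoxylate cycle, 0 were called and 0 had an unadjusted p under 0.05, where 16.4% of all tested genes had one, so these counts are near the background. They had log2 fold changes from -0.11 to 0.23 and a median of 0.19. Of the 8 listed for the reversible steps 2 rose, and the range was -0.27 to 0.61 with a median of 0.25. Of the 3 listed for entry 1 rose, with a range from -0.92 to 0.71, and of the 3 listed for the opposing steps 1 rose, with a range from -0.02 to 0.62. The -0.92 came from a locus with 1 to 18 counts per library. Of the 2 regulators only 1 was tested, with a log2 fold change of 0.73 that did not pass, from 10 to 56 counts.

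The largest rise among the called loci was that of PAS_chr2-2_0024, listed for entry. It had 211, 168 and 375 CPM in replicates 1, 2 and 3 with nitrogen and 562, 351 and 280 CPM without, with overlapping groups. The fitted log2 change was 0.71 ± 0.17 (SE), with edgeR's adjusted p = 0.00190, but DESeq2 did not call it (adjusted p = 0.577), and over 15 alternatives the adjusted p ran from 8.12e-06 to 0.577. Without replicate 1 without nitrogen the log2 fold change was 0.37, and without replicate 3 with nitrogen it was 1.09. The call was also lost without replicate 1 with nitrogen (0.59) and without replicate 2 with nitrogen (0.50).

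PAS_chr1-4_0047, listed for the opposing steps, came next. It had 264, 330 and 336 CPM with nitrogen and 511, 432 and 482 CPM without, and the groups did not overlap. The fitted log2 change was 0.62 ± 0.16 (SE), with edgeR's adjusted p = 0.00533, and it also passed with DESeq2 (adjusted p = 0.0323), and over 15 alternatives the adjusted p ran from 0.00258 to 0.111. It was lost without replicate 1 with nitrogen (0.50) and without replicate 1 without nitrogen (0.54). PAS_chr3_0082 and PAS_chr1-4_0292, listed for the reversible steps, were also called, and their groups did not overlap. Their log2 changes were 0.61 ± 0.13 and 0.49 ± 0.13 (SE), with edgeR's adjusted p = 0.000295 and 0.00408. Both calls were lost without replicate 1 without nitrogen, where 0 listed loci were called.

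**Figure D3:**
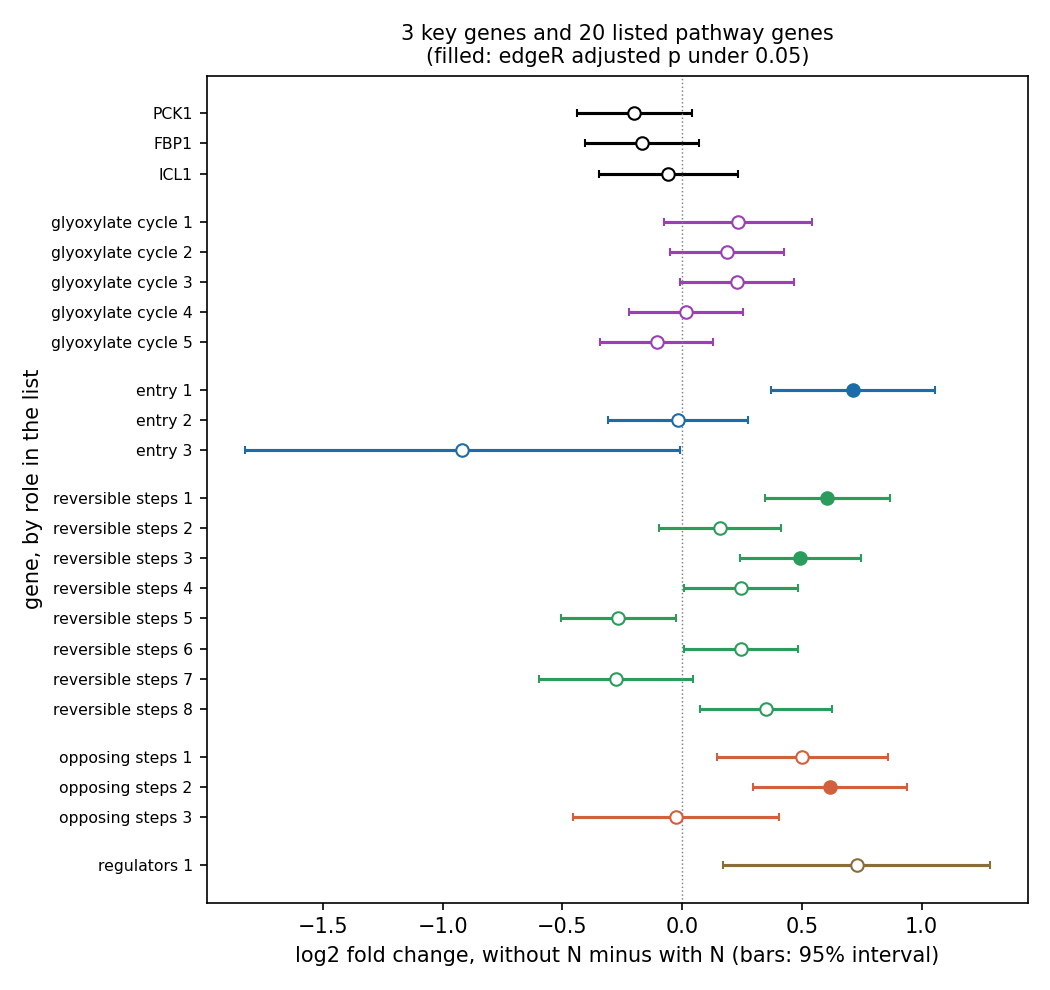
Log2 fold change with its 95% interval for PCK1, FBP1 and ICL1 in black and for the 20 tested loci of the list, coloured and numbered by role. Filled points passed at an edgeR adjusted p under 0.05. The 3 key genes lie between -0.20 and -0.06, and the 4 filled points all lie above 0.

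FBP1 was also set beside the summed counts of the 3 loci listed for the opposing steps. Phosphofructokinase acts on the same pair of sugar phosphates as fructose-1,6-bisphosphatase, in the other direction; the group also holds the pyruvate kinase step, which does not. This ratio was chosen after the values were seen and is a description with no test. There were 5.73, 5.43 and 7.36 FBP1 reads per read of that group in replicates 1, 2 and 3 with nitrogen, and 4.35, 3.59 and 4.25 without. The means were 6.17 ± 1.03 and 4.06 ± 0.414 (SD, n = 3 each), and the groups did not overlap. Of the 3 opposing loci, 2 were already known not to overlap, higher without nitrogen, so this adds no support of its own. By the CPM of single genes the groups were apart for 20.2% of all tested genes. That is an unlike measure, and the share for ratios to this same group was not computed. The difference on the log2 scale was -0.60, and -0.46 without replicate 3 with nitrogen, where the log2 fold change of FBP1 itself was 0.0057.

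**Figure D4:**
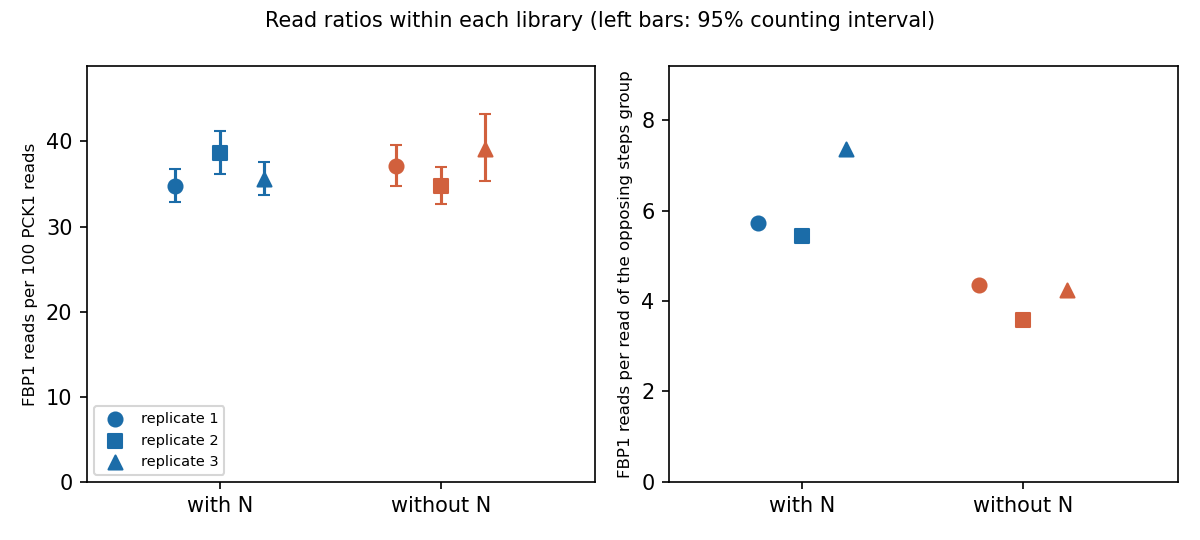
Read ratios within each library, on linear axes from 0. Left, FBP1 reads per 100 PCK1 reads with 95% counting intervals, between 34.7 and 39.1 in all 6 libraries; right, FBP1 reads per read of the 3 loci listed for the opposing steps, from 5.43 to 7.36 with nitrogen and from 3.59 to 4.35 without.

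Of the 6 genes beside the members, 5 were read less than any of the 3 members, and 1, beside ICL1, was read more than ICL1. PAS_FragB_0062 points at PCK1 from 150 bp beyond its end and had 3 to 13 counts per library. PAS_chr3_1232 points at FBP1 from 440 bp away and had 18 to 82 counts. PAS_chr1-4_0339 points at ICL1 from 231 bp away and had 303 to 978 counts, more than ICL1 in every library, at 2012 ± 182 CPM with nitrogen and 2184 ± 150 CPM without (SD, n = 3 each). The strand setting of the counting is not given in the sources used here, so reads of ICL1 and of this convergent neighbour near their ends may not be fully separated. On the other side, PAS_FragB_0059 lay 689 bp before PCK1 with 6 to 36 counts, PAS_chr3_0869 lay 638 bp from FBP1 with 12 to 43 counts, and PAS_chr1-4_0336 lay 636 bp from ICL1 with 0 to 5 counts.

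**Figure D5:**
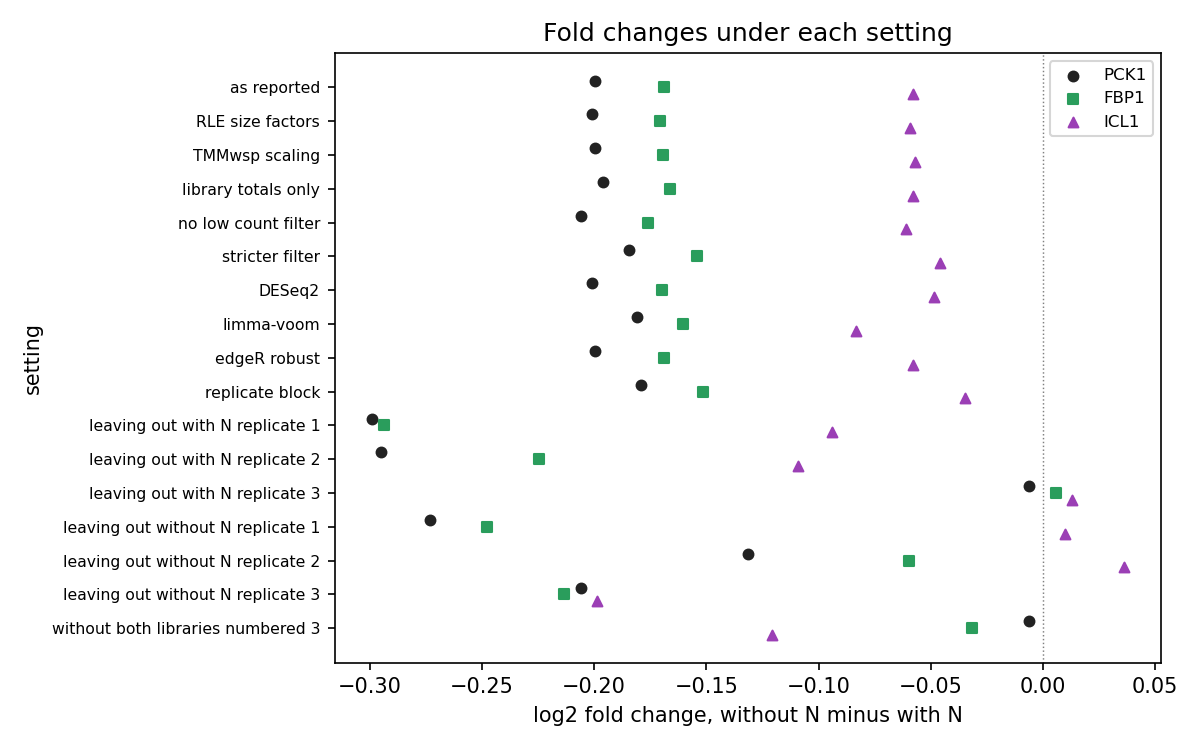
Log2 fold change of PCK1, FBP1 and ICL1 as reported and under 16 other settings. Values of PCK1 and FBP1 lie close to 0 when replicate 3 with nitrogen is left out, at -0.0061 and 0.0057, and those of ICL1 lie on both sides of 0.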

How the data were processed

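The deposited table holds unnormalized read counts by gene for all 6 libraries. Each library took 300 ng of RNA into a QuantSeq 3′ forward kit, per the labels' protocols. The tools were Trimmomatic, HISAT2 and featureCounts, per the submitters' processing notes; versions and settings: not given in the sources used here. All 5040 tags and positions match RefSeq assembly ASM2700v1 of strain GS115. All lengths are multiples of 3, so they are coding lengths, and fragments wholly in a 3′ untranslated region would not be counted.

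Counts were tested with edgeR 4.0.16 (R 4.3.3): filterByExpr with a minimum count of 10, TMM scaling, a quasi-likelihood F-test, two-sided, and Benjamini-Hochberg adjustment over 3330 genes, threshold 0.05. The SE was obtained from the log2 fold change and the root of the F statistic. The prior degrees of freedom were 1014, so a gene's SE comes mostly from the trend over all genes. Alternatives used DESeq2 1.42.0, limma 3.58.1, other scalings and filters, a replicate block and each library left out. Ratios within libraries used a pseudocount of 0.5 and exact permutation tests (SciPy 1.17.1). Libraries of a group were more different than sampling noise allows (chi-square per degree of freedom 1.78 to 2.69).

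The members and lists were chosen with earlier results of these data known. Named besides the members were list genes past the threshold (with alternatives for the 2 largest), flanking genes and the nearest genes in pattern. A planned check of protein family signatures was not run, as no sequences were used here.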

Additional observations from a re-analysis of the deposited data

How the results depend on the processing

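None of the 48 values of PCK1, FBP1 and ICL1 under alternatives passed the threshold, and 44 kept their sign. With a library left out, PCK1 ran from -0.30 to -0.0061 (edgeR adjusted p 0.201 to 0.989), FBP1 from -0.29 to 0.0057 and ICL1 from -0.20 to 0.036. Without both libraries numbered 3, a setting chosen after the data were seen, they were -0.0061, -0.03 and -0.12. The log2 ratio of FBP1 to PCK1 differed by -0.014 to 0.072 with a library left out, that of ICL1 to PCK1 by -0.0071 to 0.30, that of FBP1 to ICL1 by -0.28 to -0.0065, and the summed share by -0.305 to -0.0047 percentage points. Over all genes, DESeq2 called 119 (71 higher, 48 lower), and 129 to 183 were called with a library left out: leaving out replicate 2 with nitrogen gave 133, and leaving out replicates 1 or 2 of the other group gave 132 or 129. The count of listed pathway loci that rose ran from 0 to 5 with a library left out, and from 3 to 5 in the other settings. The causes were not tested. With the replicate block, 168 genes were called, the members had log2 fold changes of -0.18, -0.15 and -0.03, and 5 listed loci rose. The deviations of same-numbered libraries correlated at -0.067, -0.032 and -0.058, which gives no sign of pairing by number. Depth limits ICL1 most, at 89 to 240 counts per library.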
